A study of Mus musculus with 6 samples.

Results

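Expression of 10 integrin chain genes of mouse lung fibroblasts was followed: the alpha chains Itga1, Itga4, Itga5, Itga8, Itga11 and Itgav and the beta chains Itgb1, Itgb3, Itgb5 and Itgb8. They were chosen by name, as chains of the receptors for collagen, fibronectin and latent TGF-beta, and all 10 were found among the 45706 genes of the table and passed the filter on low counts. The cells were lung fibroblasts from wild-type mice, grown out of digested lung tissue for 7 days. They were left without added DKK1 (control, 3 samples) or were treated for 24 hours with recombinant DKK1 of the mouse, 30 ng/ml (3 samples), in order to identify genes that DKK1 changes. The labels name no mouse strain, age or number of animals, nor whether the samples are separate cultures, so p-values measure only the spread between these samples, which may be technical.

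An integrin is a cell-surface receptor made of 1 alpha and 1 beta chain, and the pair decides which matrix protein is bound. The beta chain Itgb1 pairs with all 6 alpha chains listed here and forms collagen receptors with Itga1 and Itga11, fibronectin receptors with Itga5 and Itga4, and a nephronectin receptor with Itga8. Itgav also pairs with Itgb3, Itgb5 and Itgb8, and several of these pairs can release active TGF-beta from its latent complex in the matrix. DKK1 (Dickkopf-1) is a secreted inhibitor of Wnt signalling and acts on the co-receptors LRP5 and LRP6.

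DKK1-treated cells held less mRNA of the alpha chains Itga8 and Itga1, by 25.1% and 17.8%, while the partner chain Itgb1 had a 95% interval of 0.920 to 1.01 times its control level. Those were the 2 members called by edgeR's quasi-likelihood test (Benjamini-Hochberg adjusted p under 0.05 over 14635 tested genes), both lower, against 0.895% of all tested genes called in either direction and 0.198% called lower. With replicate number as a block, Itga4 was called as well. This fit compares each DKK1 sample with the control sample of the same number, a pairing that the labels do not state. That made 3 members, all lower, against 9.42% of all tested genes called and 4.46% called lower. None of the 4 beta chains was called in either fit. The interval of Itgb1 given above is that without the block. With it the 95% interval of its log2 fold change was -0.092 to -0.016, below 0. Across the 10 members 8 fold changes were below 1, with a median log2 fold change of -0.05, against -0.0009 over all tested genes. RNA of a whole culture was measured, so fewer cells of a type and less RNA per cell cannot be told apart.

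Library totals ranged from 22565917 to 34727102 expected counts. Replicate 3 of both groups stood apart: it lay apart from the other libraries on the first principal component, which held 33.1% of the variance of log2 CPM (CPM, counts scaled to a common library total). Summed leukocyte markers (10 genes; Cd3e at 0 in all libraries) stood at 838 and 841 CPM in the replicate 3 libraries and at 414 to 487 CPM in the other 4, and epithelial markers (9 genes) at 127 and 127.5 against 38.3 to 48.1 CPM. Fibroblast markers (7 genes) summed to 8820 to 10311 CPM in control and 8327 to 9642 CPM in DKK1 libraries, so the labelled cell type was present in every sample. Most of the sum came from Col1a1 and Col1a2, with control means of 5939.5 and 2958 CPM. None of the 7 was called without the block. With it 2 were called higher (Pdgfra and Dcn) and 3 lower (Col1a1, Col1a2 and Thy1), against 4.96% and 4.46% of all tested genes. Without replicate 3 of either group, in the fit with the block, log2 fold changes were -0.455 for Itga8 (edgeR adjusted p = 6.69e-06), -0.315 for Itga1 (adjusted p = 0.000576) and -0.392 for Itga4 (adjusted p = 0.11), so Itga4 lost the call. Fewer samples were left in this fit, so its adjusted p-values cannot be set beside those of all samples.

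Levels can be compared between genes only per length, here as RPKM, the CPM divided by the length of all annotated exons in kilobases. In control cells Itgb1 was the most abundant chain at 605 ± 11.6 RPKM (SD, n = 3), followed by Itga5 at 199 ± 13.6, Itgb5 at 107 ± 0.953, Itgav at 40.6 ± 1.64 and Itga8 at 25.2 ± 2.21 RPKM. These 5 chains lay well above the rest. The lower group held Itga1 at 3.81 ± 0.0544, Itgb3 at 3.01 ± 0.478, Itga11 at 1.37 ± 0.337, Itga4 at 0.486 ± 0.0377 and Itgb8 at 0.237 ± 0.0454 RPKM. In control no 2 neighbours in this order overlapped between libraries. In DKK1-treated cells Itga1 (3.15 ± 0.11 RPKM) overlapped with Itgb3 (3.31 ± 0.774 RPKM), which then had the higher mean, and Itga4 (0.376 ± 0.0431 RPKM) overlapped with Itgb8 (0.286 ± 0.0763 RPKM).

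The fibronectin receptor chain Itga5 alone made up 73.5% ± 1.81 of the summed RPKM of the 6 alpha chains in control and 75.1% ± 1.20 with DKK1 (SD, n = 3 each). Itgb1 made up 84.6% ± 0.203 and 84.2% ± 0.102 of the summed RPKM of the 4 beta chains. The deposited table lists 1 transcript of Itga1 where the annotation has 6; counting only the exons of the listed transcripts raised the control level of Itga1 to 6.46 RPKM and kept the order of the 10 chains. With the median length of all annotated transcripts, Itgb5 stood above Itga5 and Itga4 above Itga11, and the share of Itga5 in control was 38.9% ± 2.23, beside 38.7% ± 2.10 for Itgav (SD, n = 3).

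**Figure D1:**
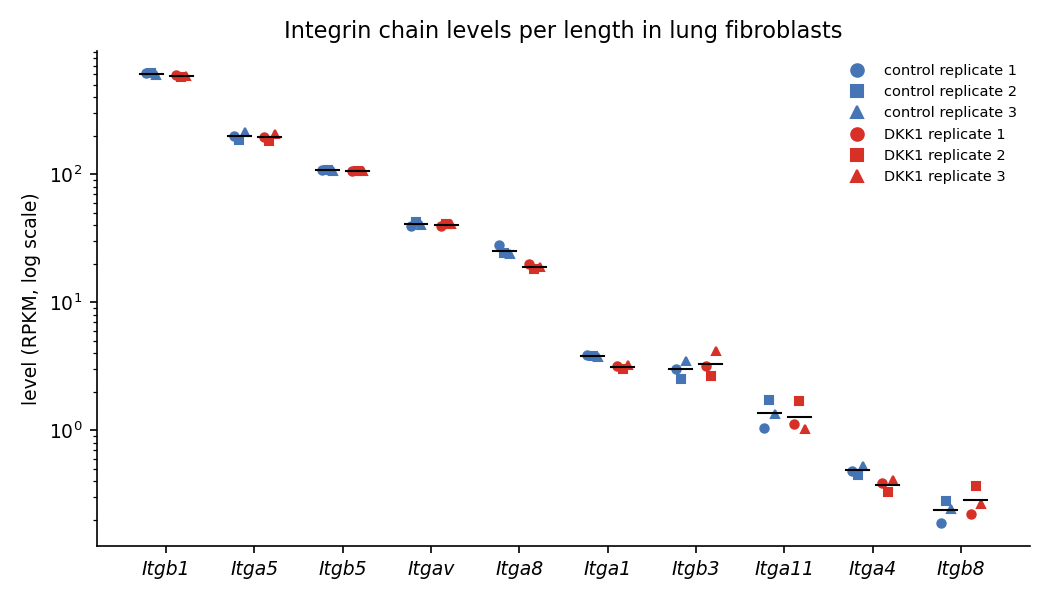
Level of each integrin chain in RPKM (log scale) in the 3 control and 3 DKK1 libraries; symbols mark the replicate and black lines the group mean. The 5 chains from Itgb1 to Itga8 lie well above the 5 from Itga1 to Itgb8, and within genes the groups do not overlap for Itga8, Itga1, Itga4 and, by a small margin, Itgb1.

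Itga8 (ENSMUSG00000026768, GRCm38 chromosome 2, 12106632 to 12301922, minus strand) encodes the alpha chain that pairs with Itgb1 to bind nephronectin and other proteins with an RGD sequence, and it is known from smooth muscle and myofibroblast-like cells. It was measured at 204, 177.5 and 175 CPM in control replicates 1 to 3 and at 146.5, 133 and 139 CPM in DKK1 replicates 1 to 3. All DKK1 libraries were below all control libraries, and the DKK1 library was the lower in each same-numbered pair. On the log2 scale it fell by 0.42 (SE 0.06, edgeR adjusted p = 0.0278), a fold of 0.749 with a 95% interval of 0.676 to 0.830. The call held without control replicate 3 and was lost in the other 5 fits that left out 1 library, with adjusted p = 0.0507 without control replicate 1, 0.0802 without control replicate 2, 0.0882 without DKK1 replicate 1, 0.113 without DKK1 replicate 2 and 0.0655 without DKK1 replicate 3. With the block Itga8 stayed called without replicate 1, 2 or 3 (edgeR adjusted p = 1.91e-27, 0.00044 and 6.69e-06), at log2 fold changes of -0.381, -0.411 and -0.455. These fits hold 2 libraries a group, so their adjusted p-values are no measure of strength. Without replicate 1 the SE was 0.0335, larger than the 0.0294 of the block fit of all samples, although the adjusted p was far smaller. An antisense gene, E030013I19Rik, overlaps exons of Itga8 and was found at 3.35% of its CPM. Its log2 fold change was -0.48, not called without the block (edgeR adjusted p = 0.264) and called with it (adjusted p = 0.0117), and whether reads of the 2 genes were counted apart was not tested. Part of the expected counts of Itga8 were not whole in all 6 libraries.

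Itga1 (ENSMUSG00000042284, chromosome 13, 114953096 to 115101964, minus strand) encodes a collagen-binding chain with a preference for the collagen of basement membranes. It stood at 72.0, 70.5 and 70.0 CPM in control replicates 1 to 3 and at 58.8, 56.3 and 60.4 CPM in DKK1 replicates 1 to 3. The control libraries lay within a few percent of each other and well above all DKK1 libraries. On the log2 scale it fell by 0.28 (SE 0.04, edgeR adjusted p = 0.0183), a fold of 0.822 with a 95% interval of 0.772 to 0.876. The call held without control replicate 3 or DKK1 replicate 3 and was lost on leaving out control replicate 1 (adjusted p = 0.0928), control replicate 2 (0.0851), DKK1 replicate 1 (0.0882) or DKK1 replicate 2 (0.0859). With the block Itga1 stayed called without replicate 1, 2 or 3 (edgeR adjusted p = 8.95e-08, 0.0112 and 0.000576), where 2 libraries a group remain and the adjusted p is no measure of strength. The expected counts of Itga1 were whole in all libraries and no annotated gene overlaps its exons.

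Itga8 and Itga1 are both known from smooth muscle, so markers of smooth muscle and pericytes were read beside them. The 10 markers summed to 6926 to 7710 CPM in control and 5840 to 6845 CPM in DKK1 libraries, without overlap, and all were detected. Most of the sum came from Acta2, with 5677 to 6423 CPM in control and 4767 to 5721.5 CPM in DKK1 libraries, whose groups overlapped. The sum therefore says little of the remaining markers, of which Rgs5, Notch3 and Cox4i2 were not called in either fit. Of the 10 markers 1 was called lower without the block (Myh11, which encodes smooth muscle myosin heavy chain) and 7 were called lower with it, against 0.198% and 4.46% of all tested genes. Their part in the falls of Itga8 and Itga1 was not tested.

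Itga4 (ENSMUSG00000027009, chromosome 2, 79255426 to 79333123, plus strand) encodes a chain that binds VCAM1 and fibronectin and is abundant on leukocytes. It was low, with 6.78, 6.27 and 7.32 CPM in control replicates 1 to 3 and 5.44, 4.58 and 5.74 CPM in DKK1 replicates 1 to 3, from 132 to 177 expected counts a library. The groups did not overlap and each DKK1 library was below its same-numbered control. On the log2 scale it fell by 0.38, which edgeR did not call without the block (SE 0.12, adjusted p = 0.281) and called with it (SE 0.10, adjusted p = 0.0335). With DESeq2 and the block it was not called (adjusted p = 0.717), nor in edgeR with the block when replicate 2 (adjusted p = 0.232) or replicate 3 (adjusted p = 0.11) was left out. Summed leukocyte markers ranged from 414 to 838 CPM in control and from 438 to 841 CPM in DKK1 libraries, most of it from Lyz2, with 340 to 696 CPM in control and 370 to 722 CPM in DKK1 libraries. The median log2 fold change of the 8 leukocyte markers tested was -0.16, with 5 of 8 below 0. With the block 3 of the 8 were called, against 9.42% of all tested genes. The myeloid markers Csf1r (log2 fold change -0.25, edgeR adjusted p = 0.0364) and Laptm5 (-0.32, adjusted p = 0.00163) were lower in each same-numbered pair, and the macrophage marker Adgre1 (0.54, adjusted p = 0.00179) was higher in each. Lyz2 was also higher in each pair without a call (0.06, adjusted p = 0.0914), and the part of leukocytes in the level of Itga4 was not tested.

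The 250 bases before the annotated start of the 3 genes Itga8, Itga1 and Itga4 are shown because these were the members called, Itga4 in the paired fit only; they are RefSeq sequences on GRCm38.p6, written on the gene's strand, at chr2:12301945-12302194 (Itga8, minus), chr13:115101965-115102214 (Itga1, minus) and chr2:79255176-79255425 (Itga4, plus). Capitals mark the motifs found:

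Itga8: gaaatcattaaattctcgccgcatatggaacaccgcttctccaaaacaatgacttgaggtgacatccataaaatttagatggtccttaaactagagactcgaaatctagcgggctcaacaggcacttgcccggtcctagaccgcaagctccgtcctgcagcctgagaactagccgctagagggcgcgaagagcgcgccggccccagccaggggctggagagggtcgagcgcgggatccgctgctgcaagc

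Itga1: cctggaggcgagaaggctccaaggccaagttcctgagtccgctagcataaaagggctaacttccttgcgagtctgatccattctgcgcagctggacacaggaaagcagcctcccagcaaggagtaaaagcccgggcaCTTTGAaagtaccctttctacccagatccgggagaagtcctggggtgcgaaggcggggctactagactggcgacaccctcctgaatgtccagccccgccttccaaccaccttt

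Itga4: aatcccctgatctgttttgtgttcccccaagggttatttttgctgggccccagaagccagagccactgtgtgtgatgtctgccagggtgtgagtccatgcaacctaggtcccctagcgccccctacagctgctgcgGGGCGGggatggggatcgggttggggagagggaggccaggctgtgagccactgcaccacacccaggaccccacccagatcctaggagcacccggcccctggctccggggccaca
Of the 10 members 9 had a promoter entry. Both strands were searched for TATAAA, the GC box GGGCGG, the TCF/LEF motif CTTTGA of Wnt-responsive factors, the AP-1 motif TGANTCA, and the CArG box and kappaB motif by name. Itga1 held 1 TCF/LEF match, a motif found in 13.8% of the 32851 promoter windows of this length, and Itga4 held 1 GC box, found in 32.7% of them. In Itga8 none of the 6 motifs matched, which says only that these letters are not in this window. A match is a description and not a binding site.

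**Figure D2:**
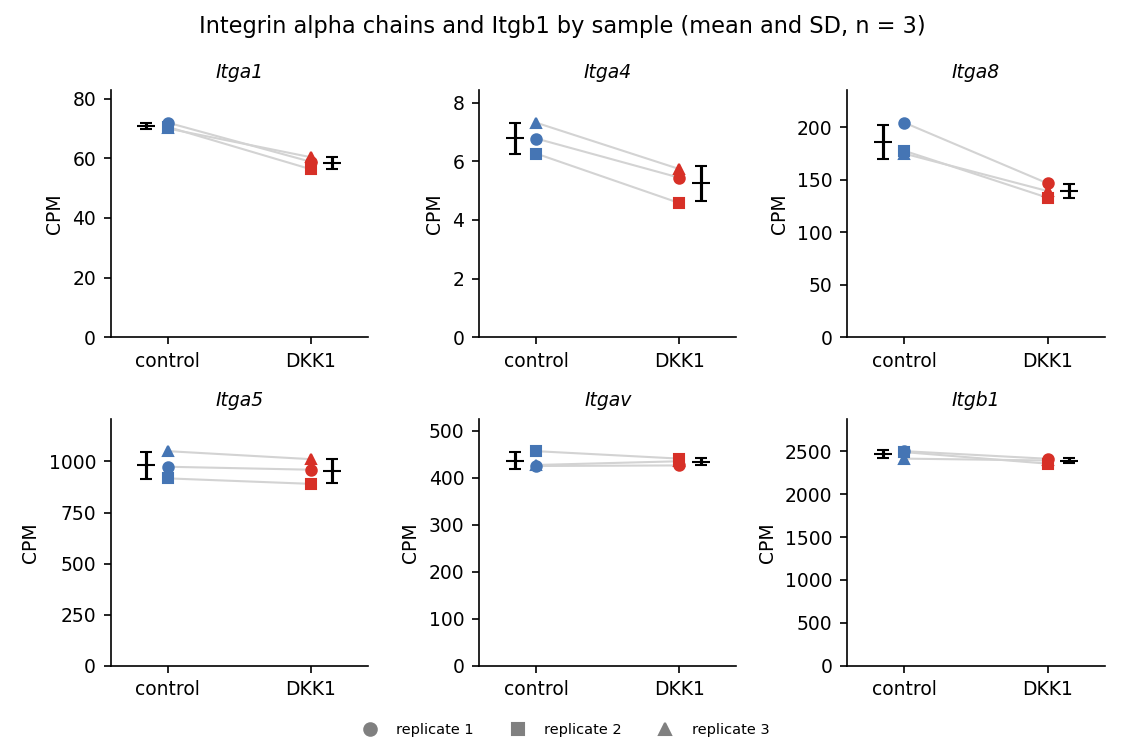
CPM of 5 alpha chains and Itgb1 in each library, with grey lines joining libraries of the same replicate number and bars giving mean and SD (n = 3). Every line falls for Itga1, Itga4, Itga8, Itga5 and Itgb1, by little for Itga5 and Itgb1, and the lines of Itgav go both ways.

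The abundant fibronectin receptor chain Itga5 was found at 974, 917 and 1051 CPM in control replicates 1 to 3 and at 960, 890 and 1011 CPM in DKK1 replicates 1 to 3. The groups overlapped, although the DKK1 library was the lower in each same-numbered pair. Its fold was 0.969 with an unpaired 95% interval of 0.886 to 1.06 (edgeR, unpaired adjusted p = 0.857 and paired adjusted p = 0.147). With the block the 95% interval of its log2 fold change, -0.083 to -0.0072, lay below 0 without a call. Itgav, which pairs with Itgb1, Itgb3, Itgb5 and Itgb8, lay at 425, 456 and 427 CPM in control replicates 1 to 3 and at 426, 440 and 435 CPM in DKK1 replicates 1 to 3. Its values interleaved, with a fold of 0.991 (95% interval 0.932 to 1.05, edgeR adjusted p = 0.959). Itga11, the chain of a receptor for fibrillar collagen, was low and scattered, at 5.32, 8.77 and 6.93 CPM in control replicates 1 to 3 and 5.79, 8.61 and 5.29 CPM in DKK1 replicates 1 to 3. Its 95% interval of 0.653 to 1.34-fold includes the fold measured for Itga8 (edgeR adjusted p = 0.946). The sign of its change turned without control replicate 2 (log2 fold change 0.11) or without DKK1 replicate 3 (0.0355).

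Among the beta chains, Itgb1 (ENSMUSG00000025809, chromosome 8, 128685654 to 128733200, plus strand) was measured at 2501, 2490 and 2414 CPM in control replicates 1 to 3 and at 2413, 2355 and 2392 CPM in DKK1 replicates 1 to 3. The groups just missed each other, the DKK1 side being lower, with a log2 fold change of -0.05 (SE 0.03), which edgeR did not call (adjusted p = 0.6; with the block 0.0809). It was called only with the block after removal of the dependence on GC content and transcript length in each library (log2 fold change -0.073, adjusted p = 0.0227). Itgb5, a vitronectin receptor chain, varied least, from 377 to 384 CPM in control and from 376 to 378 CPM in DKK1 libraries, and its fold was 0.987 (95% interval 0.943 to 1.03, edgeR adjusted p = 0.888).

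Itgb3, like Itgb5 a beta chain of a vitronectin receptor, stood at 17.8, 14.9 and 20.6 CPM in control replicates 1 to 3 and at 18.6, 15.5 and 24.5 CPM in DKK1 replicates 1 to 3. The groups overlapped, while each DKK1 library was above its same-numbered control (log2 fold change 0.13, SE 0.17, edgeR adjusted p = 0.867; paired fit, SE 0.06 and adjusted p = 0.3). Without DKK1 replicate 3 the log2 fold change was -0.0577. Itgb8, whose pair with Itgav is a known activator of latent TGF-beta, was the scarcest chain at 2.08, 3.08 and 2.69 CPM in control replicates 1 to 3 and 2.44, 4.09 and 2.95 CPM in DKK1 replicates 1 to 3, from 47 to 142 counts a library. It was also higher in each same-numbered pair without passing the test (log2 fold change 0.27, SE 0.24, edgeR adjusted p = 0.766; with the block 0.362). The log2 fold change was 0.02 without DKK1 replicate 2, 0.13 without control replicate 1, 0.41 without control replicate 2 and 0.43 without DKK1 replicate 1. Its 95% interval without the block ran from 0.828 to 1.75-fold.

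**Figure D3:**
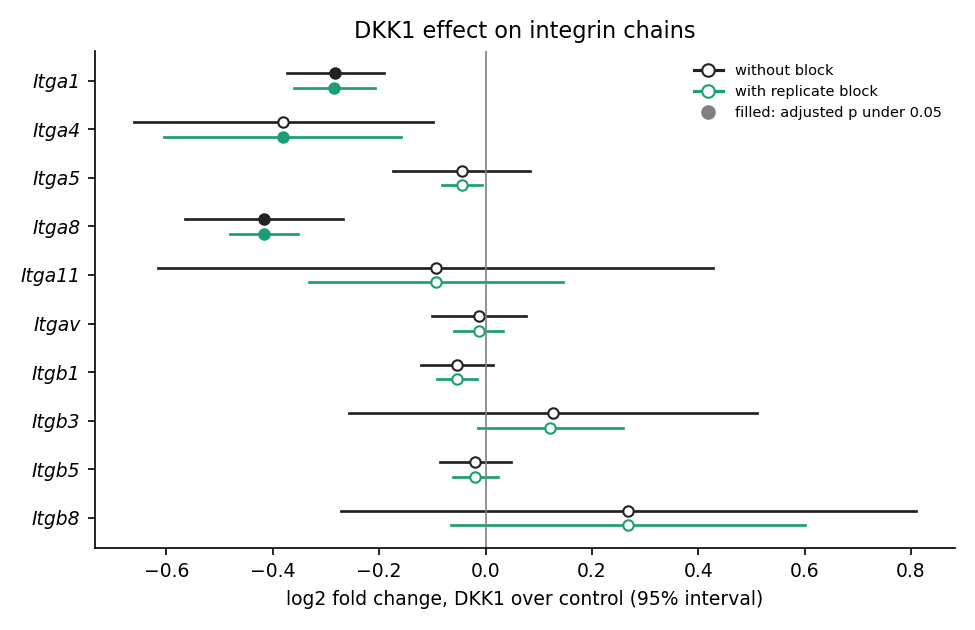
Log2 fold change of each integrin chain (points) with its 95% interval (lines), in the unpaired fit and in the fit with the replicate block; filled points are called at an adjusted p under 0.05. Itga1 and Itga8 are called in both fits and Itga4 with the block. The intervals of Itgb1, Itgb5 and Itgav are narrow. With the block those of Itgb1 and Itga5 lie below 0 without a call.

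In all, 4 members (Itga1, Itga4, Itga8 and Itgb1) had every DKK1 library below every control library, against 7.14% of all tested genes, and 0 had every DKK1 library above, against 9.4% of all tested genes. In same-numbered pairs 6 members were lower in all 3 pairs, against 19.5% of all tested genes, and 2 were higher in all 3, against 22.3%.

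Whether alpha chains fell more than Itgb1 was read within each library, where scaling between libraries cancels. Itga8 stood at 4.52%, 3.95% and 4.01% of the RPKM of Itgb1 in control replicates 1 to 3 and at 3.36%, 3.12% and 3.22% in DKK1 replicates 1 to 3. Itga1 stood at 0.630% ± 0.00749 in control and 0.538% ± 0.0147 with DKK1, and Itga4 at 0.0804% ± 0.0076 and 0.0642% ± 0.00679 (SD, n = 3 each). For all 3 the groups did not overlap. The exact permutation test over samples gave p = 0.1 for each, two-sided, and 0.2 after Benjamini-Hochberg adjustment over 6 ratios. A p of 0.1 is the smallest that 3 samples against 3 allow and lies above the threshold used for calls. This test could therefore call no ratio and cannot decide whether these chains fell more than Itgb1. The ratios were added after seeing the data and come from the libraries that gave the falls, so they are a description. Itga5 stood at 32.9% ± 2.82 and 33.05% ± 1.85 of Itgb1 (exact permutation p = 1), Itgav at 6.71% ± 0.255 and 6.90% ± 0.198 (exact permutation p = 0.5), and Itga11 at 0.226% ± 0.0556 and 0.219% ± 0.0624 (exact permutation p = 1), with overlapping groups. These tests do not use the replicate numbers; in same-numbered pairs the ratio of Itgav was higher with DKK1 in 3 of 3 and those of Itga5 and Itga11 in 2 of 3, while those of Itga8, Itga1 and Itga4 were higher in 0 of 3.

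**Figure D4:**
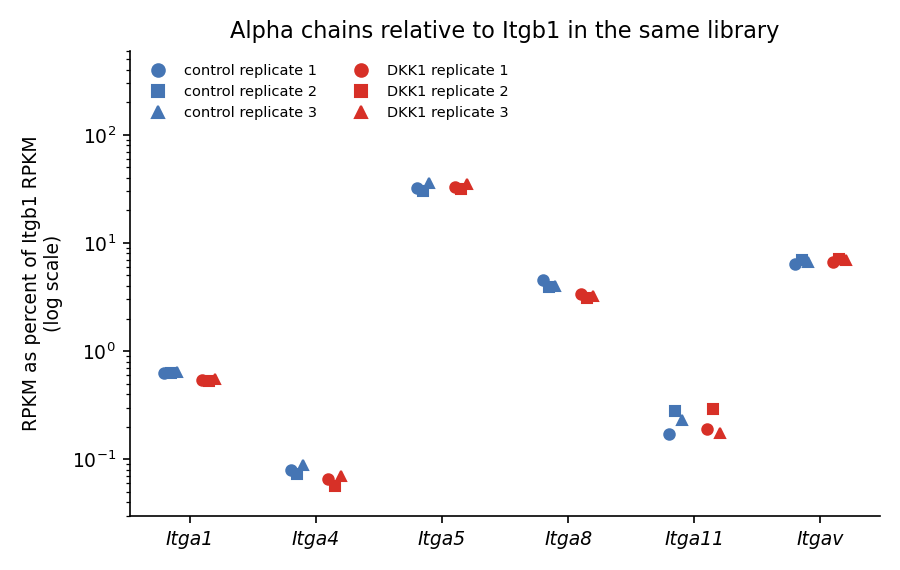
RPKM of each alpha chain as a percent of the RPKM of Itgb1 in the same library (log scale); symbols mark the replicate. The DKK1 points of Itga1, Itga4 and Itga8 lie below all control points, and those of Itga5, Itga11 and Itgav overlap with them.

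Of the 17 remaining integrin chains of the mouse, 14 passed the filter. In the unpaired edgeR fit 0 were called, although the unadjusted p of 2 lay under 0.05, and DESeq2 and limma-voom also called 0; with the block 3 were called, all higher, against 4.96% of all tested genes called higher. Itgam, the alpha chain of a complement receptor of myeloid cells, was measured at 11.5, 12.6 and 20.6 CPM in control replicates 1 to 3 and at 26.3, 25.0 and 43.2 CPM in DKK1 replicates 1 to 3, without overlap (log2 fold change with the block 1.07, SE 0.06, edgeR adjusted p = 7.23e-08; without it adjusted p = 0.136). Its partner Itgb2 (with the block 0.41, SE 0.04, adjusted p = 2.73e-05) and the collagen-binding chain Itga2 (0.40, SE 0.04, adjusted p = 3.34e-05) were higher in each same-numbered pair, while their groups overlapped. With the block these 3 genes stayed called without any 1 replicate number. Itgax and Itgal, further partners of Itgb2, had log2 fold changes of 0.35 and -0.016 with the block and were not called (edgeR adjusted p = 0.106 and 0.957). Both Itgam and Itgb2 were highest in the replicate 3 libraries of their group, as were the leukocyte markers. Of the 8 leukocyte markers tested, 1 was called higher (Adgre1) and 2 lower (Csf1r and Laptm5) with the block, against 4.96% and 4.46% of all tested genes, and their part in these rises was not tested.

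Of 30 integrin ligands and parts of the latent TGF-beta complex, 29 were tested, and 2 were called lower and 0 higher without the block, where all tested genes gave 0.198% lower and 0.697% higher. Their median log2 fold change was -0.02. The called ligands were Fbln5, an elastic fibre protein that binds integrins through an RGD sequence (268, 271 and 242 CPM in control replicates 1 to 3, and 193, 206 and 187 CPM in DKK1 replicates 1 to 3; log2 fold change -0.42, SE 0.06, edgeR adjusted p = 0.0153), and Tgfb3, a TGF-beta whose latent form is bound by Itgav integrins (381, 329 and 376 CPM against 277, 262 and 294 CPM; log2 fold change -0.39, SE 0.06, edgeR adjusted p = 0.0285). In both genes all DKK1 libraries were below all control libraries. Fbln5 lost the call without control replicate 1, control replicate 2 or DKK1 replicate 1 (adjusted p = 0.0789, 0.0755 and 0.0986), and Tgfb3 without control replicate 1, control replicate 3, DKK1 replicate 1 or DKK1 replicate 2 (adjusted p = 0.123, 0.0725, 0.148 and 0.11). In the edgeR fit with the block Fbln5 (adjusted p = 1.93e-07) and Tgfb3 (adjusted p = 5.96e-07) were called, also without any 1 replicate number, with log2 fold changes of -0.44 to -0.39 and -0.41 to -0.35. With the block 18 ligands were called, 7 higher and 11 lower, against 4.96% of all tested genes called higher and 4.46% called lower. Calls of ligands did not go only down without the block either. DESeq2 without it called 2 of 30 higher and 2 lower, against 204 higher and 85 lower of 23883 genes.

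Of 32 proteins that bind integrins and link them to actin or set their affinity, all were tested; 1 was called, higher, without the block, against 0.697% of all tested genes called higher. With it 7 were called, 1 higher and 6 lower, against 4.96% and 4.46% of all tested genes. The median log2 fold change was -0.05, with 24 of 32 below 0, where 7377 of the 14635 tested genes were below 0. Cd47, an integrin-associated membrane protein known as a signal against uptake by macrophages, rose from 79.5, 80.5 and 74.2 CPM in control replicates 1 to 3 to 101, 96.0 and 96.2 CPM in DKK1 replicates 1 to 3 (log2 fold change 0.32, SE 0.05, edgeR adjusted p = 0.02). All DKK1 libraries were above all control libraries. In the unpaired fit the call was lost without control replicate 1, control replicate 2, DKK1 replicate 1 or DKK1 replicate 2 (adjusted p = 0.0788, 0.0582, 0.0986 and 0.0708), with log2 fold changes of 0.29 to 0.35. With the block Cd47 was called (edgeR adjusted p = 2.89e-05), also without replicate 1, 2 or 3 (adjusted p = 1.56e-11, 0.0008 and 0.000657). Those last fits hold 2 libraries a group, and their adjusted p-values are no measure of strength.

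**Figure D5:**
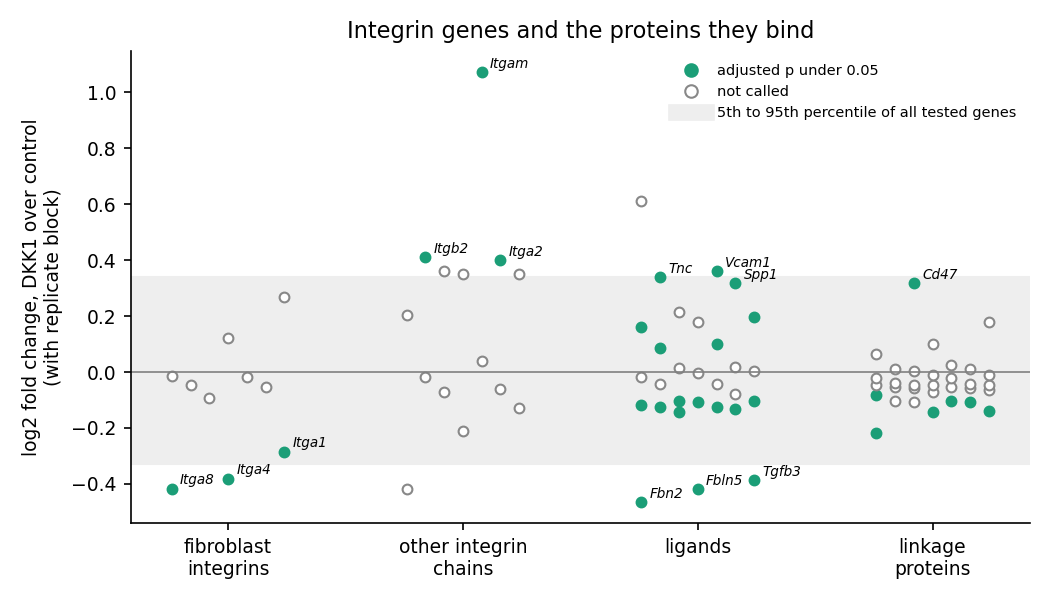
Log2 fold change with the replicate block for the 10 fibroblast integrins, the other integrin chains, the ligands and the linkage proteins that were tested; green points are called at an adjusted p under 0.05, and the grey band holds the 5th to 95th percentile of all tested genes (-0.329 to 0.339). Itga8 and Itga4 lie below the band, Itga1 inside it, and Itgam at 1.07 far above it.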

How the data were processed

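The authors deposited 1 table of RSEM expected counts per gene, not scaled, with 1 column for each of the 6 samples. Per the submitters' processing notes, STAR, RSEM and edgeR 4.2.1 were used on GRCm38 (mm10), with no role given; annotation release, strandedness and filters are not given in the sources used here. Symbols matched 98.8% of the gene identifiers; lengths, overlaps and GC content came from GENCODE release M21 (GRCm38), which holds 98.7% of the listed transcripts.

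Expected counts were rounded, filtered with filterByExpr (minimum count 10), scaled by TMM and tested with edgeR 4.0.16 in R 4.3.3 (glmQLFit and glmQLFTest, two-sided, Benjamini-Hochberg adjustment over 14635 genes), the 3 DKK1 against the 3 control samples. Standard errors are approximate and come from the log2 fold change and the F statistic. CPM used whole library totals; 3 counts correspond to 0.0864 to 0.133 CPM, which covers counting error only. The script was tested on simulated data.

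The titles number replicates 1 to 3 in both groups. Across genes, the distances of samples from the mean of their group correlated between same-numbered samples at 0.27, 0.23 and 0.41, each over 0.1. The numbers were taken to pair the samples, and the block is given where it changes a call. Samples with different numbers were not correlated, and replicate 3 stood apart in both groups. These values therefore cannot show how the remaining samples are matched between the groups. Calls with the block rest on the assumption that the numbers pair them. Alternatives were DESeq2 1.42.0, limma-voom (limma 3.58.1), other scalings, filters and depths, and leaving out samples. All 10 integrins were named, with list genes called without the block, or for a list without calls up to 4 with the smallest p with it; genes named from the marker lists were chosen after their values were seen. The members, lists and tests were chosen with earlier results of these data known; the ratios to Itgb1, the promoter motifs and the length from listed transcripts were added after seeing the data.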

Additional observations from a re-analysis of the deposited data

How the results depend on the processing

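Members called, 2 without the block, numbered 4 with the block after correction for GC content and length, and 0 to 2 when 1 library was left out (2 to 3 with the block and without 1 replicate number). The replicate block gave 1379 calls over all genes, 3 among the other integrin chains, 18 ligands and 7 linkage genes. With every library also thinned to the smallest total these were 1398, 3, 19 and 9, and after correction for GC content and length 1289, 3, 15 and 7. Without a low-count filter they were 329, 1, 4 and 2. DESeq2 called 289 genes, 4 ligands and 4 linkage genes, and with the block 551 genes, 3 other chains, 12 ligands and 6 linkage genes. Leaving out 1 library gave 36 to 139 genes, 0 other chains, 0 to 2 ligands and 0 to 1 linkage genes; with the block and without 1 replicate number it was 612 to 1312 (1059 without replicate 3), 3 to 5, 12 to 18 and 4 to 7. The fits that leave out samples use fewer samples; for the other settings the cause was not tested.

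Itga1 and Itga8 stayed lower in all 21 alternatives, at log2 fold changes of -0.315 to -0.257 and -0.464 to -0.342, and were called in 17 and 16 of them; Itga4 stayed lower in all 21 and was called in 4, all with the block. The sign turned for members that were not called: Itga5 without control replicate 3 (6.08e-07, from -0.0892 in the fits without 1 library), Itga11 without control replicate 2 (0.11, from -0.352), without DKK1 replicate 3 (0.0355) and with the block without replicate 3 (0.027), Itgav without control replicate 2 (0.0236, from -0.0346) and with the block without replicate 2 (0.0116), Itgb3 without DKK1 replicate 3 (-0.0577, up to 0.27), and Itgb5 in the paired fit corrected for GC content and length (0.00129). Itgb8, Itga11 and Itga4 had the lowest counts, 47 to 299 a library; whether depth limits their calls was not tested, and thinning every library to the smallest total changed no call of a member in either fit.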
